A study of Mus musculus with 8 samples.

Results

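The complement components and receptors described here are 9 genes, C1qa, C1qb, C1qc, C3, C4b, Cfb, Cfp, C3ar1 and C5ar1, taken by name from the 47242 gene names on the array. They were read by 11 probes, 2 each for C1qc and Cfb and 1 for each of the others, and all 9 genes passed the filter on dim signals. The series compared donor-derived myeloid cells sorted from mouse brains in which a stroke had been induced. Recipients were wild-type mice that had been given bone marrow carrying the red fluorescent protein DsRed, from Psgl1+/+ donors (wild-type, 4 samples, replicates 1 to 4) or from Psgl1-/- donors (knockout, 4 samples, replicates 5 to 8). Psgl1, now named Selplg, encodes PSGL-1, a leukocyte glycoprotein that binds selectins. In both groups the middle cerebral artery (MCA) was occluded for 30 min and brain tissue was taken 7 days later. Cells were then sorted as live, DsRed-positive, CD11b-positive and CD45-high, without Ly6G and CD3, so that host cells, which lack DsRed, fall outside the gate. The labels do not give the number of animals behind each sample, their age, or the promoter that drives DsRed. The p-values therefore weigh group differences only against the scatter between these samples, part of which may be technical.

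Complement is a cascade of plasma and tissue proteins that marks targets for uptake and calls in leukocytes. C1q, built from chains encoded by C1qa, C1qb and C1qc, starts the classical pathway, whose C3-cleaving enzyme contains a fragment of C4. The alternative pathway has a C3-cleaving enzyme of its own, in which factor B (Cfb) supplies the cutting subunit and which properdin (Cfp) stabilises. Cleavage of C3 and C5 releases peptides that signal through C3ar1 and C5ar1, and in the brain macrophages and microglia are a main source of C1q.

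The readings of C4b, C1qc and Cfb can each be set beside a second probe, and that of Cfp, the only gene whose groups did not overlap, rests on a single one, so these probe sequences are shown, as the scanner files list them, 5′ to 3′ and wholly in lower case because no base within them is singled out. Both C4 probes list transcripts of C4b and also of C4a, its near-identical neighbour, so the RNAs of these genes cannot be told apart here.
C4b probe: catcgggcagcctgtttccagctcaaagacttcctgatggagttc
C4a probe: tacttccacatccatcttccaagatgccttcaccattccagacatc
Cfp probe: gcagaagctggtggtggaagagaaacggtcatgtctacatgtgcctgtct
C1qc probe of the RefSeq transcript: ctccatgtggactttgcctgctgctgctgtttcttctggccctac
C1qc probe of the Ensembl transcript: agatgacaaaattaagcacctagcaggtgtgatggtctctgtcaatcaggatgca
Cfb probe used for the gene: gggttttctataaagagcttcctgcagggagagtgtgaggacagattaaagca
Cfb other probe: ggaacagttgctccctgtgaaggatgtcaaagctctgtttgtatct
The second C1qc probe is placed by the scanner files (build mm9) at chr4:136447831-136447890, running from the higher to the lower coordinate. The other probes are listed there as unmapped, and the exons they lie in were not looked up because no annotation of that build was used. In the reference table (GRCm38.p6), C1qa, C1qb and C1qc are on chromosome 4, C3, C4b and Cfb on chromosome 17, C3ar1 on chromosome 6, C5ar1 on chromosome 7 and Cfp on chromosome X.

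Each sample was read on 1 array, and levels are log2 signals relative to the 75th percentile of that array, so that 0 is the level of the 75th percentile and differences are knockout minus wild-type. Between 76.1% and 88.2% of gene spots per array were well above background. The 75th percentile itself was 525.8 to 748.6 on wild-type arrays and 833.3 to 958.8 on knockout arrays. Over the 42274 tested genes the median difference was -0.33, which ranged from -0.18 to -0.01 under other scalings of all 8 arrays. All arrays were on 1 slide, each slide row held 2 arrays of each group, columns 1 and 2 held wild-type and columns 3 and 4 knockout arrays, so column and group cannot be told apart, and column 4 held knockout replicates 7 and 8. The Selplg probe read 3.13 to 6.19 on wild-type and 3.33 to 3.90 on knockout arrays, and since no source used here gives the deleted part of the gene, it does not check the labels. Of the markers of the sorted cells, 7 of 7 (among them Itgam, Ptprc and Csf1r) were well above background on all 8 arrays, but so were 4 of 4 neuronal markers and 4 of 5 T cell markers on the array, so this measure does not separate cell types. Nor did the levels. The sorted-cell markers averaged 1.51 to 3.77 on wild-type and 1.98 to 3.92 on knockout arrays, and the neuronal markers 3.80 to 4.44 and 3.71 to 4.19. Marker means below are therefore probe readings and do not measure cell content.

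None of the 9 complement genes passed the threshold (limma, adjusted p under 0.05 over all tested genes), which 0.00237% of tested genes did. At an unadjusted p under 0.05, Cfp and C4b were higher in the knockout arrays (2 of 9, against 1.63% of all tested genes) and no member was lower (against 9.18%). Differences were positive for C3, C4b, Cfp and C3ar1, 4 of 9 genes, against 31.1% of all tested genes, and 7 of 9 lay above the median of all tested genes. The balance of signs depended on the scaling: with an unadjusted p under 0.05 the knockout was higher for 687 tested genes and lower for 3879, but 1247 higher and 789 lower after cyclic loess and 903 higher and 1871 lower after quantile normalization, and the members with a positive difference numbered 5 or 6 of 9 under the other scalings. Of the 9 genes, only for Cfp did the groups not overlap (1 of 9, against 11.4% of all tested genes in either direction and 0.651% with the knockout higher). The median difference of the 9 genes was -0.08, beside the -0.33 of all tested genes. Fitted probe by probe, none of the 11 member probes passed (against 0.0176% of all tested probes), and the same 2 probes, of Cfp and C4b, had an unadjusted p under 0.05 (against 10.3%).

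**Figure D1:**
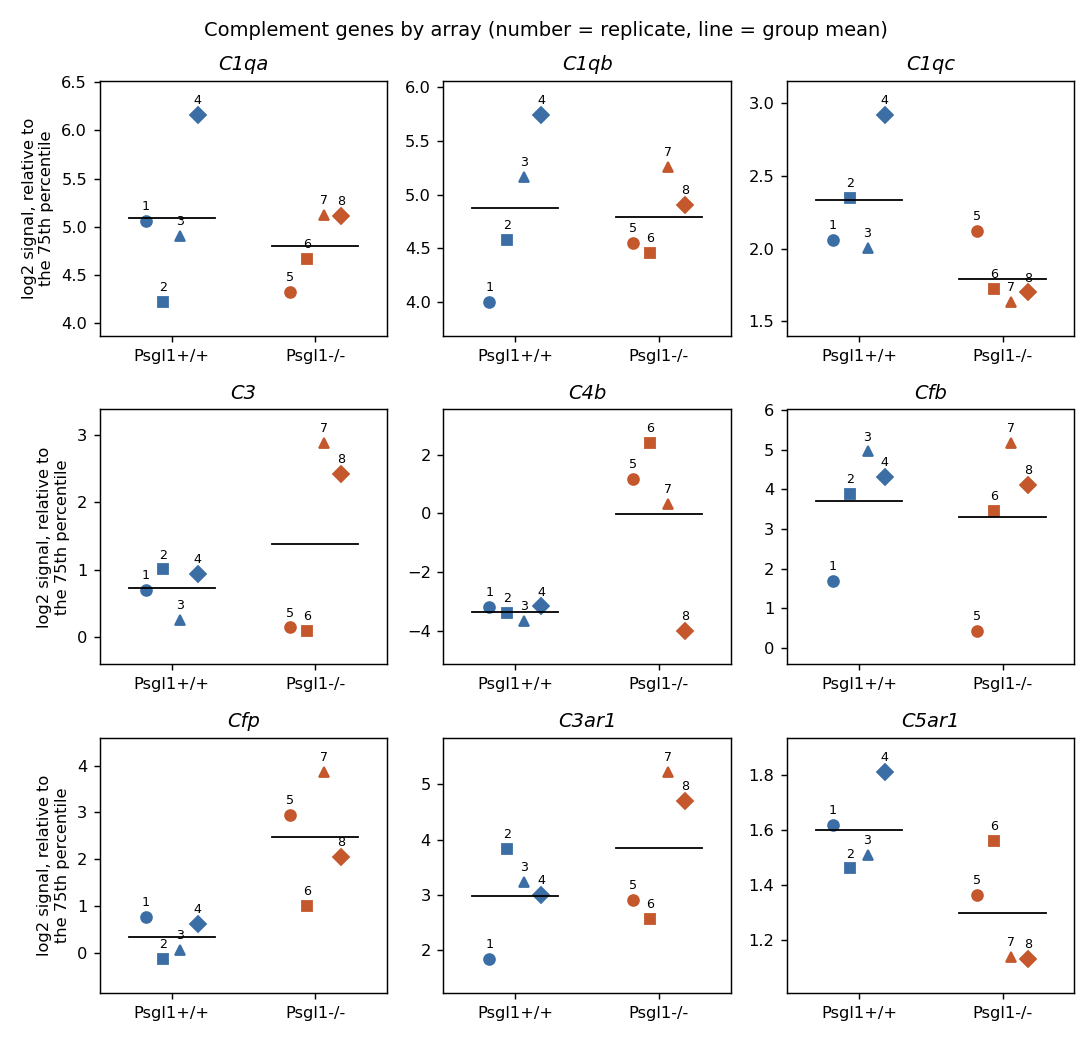
Log2 signal of each of the 9 complement genes on each array, relative to the 75th percentile of the array, with the replicate number beside each point and the group mean as a line. Each panel has its own vertical scale. All 4 knockout arrays lie above all 4 wild-type arrays for Cfp, 3 of 4 do so for C4b, and replicates 7 and 8 lie above every other array for C3 and C3ar1.

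The chains of C1q, the recognition protein of the classical pathway, showed no group difference beyond the spread between arrays. C1qa read 5.06, 4.22, 4.90 and 6.16 in wild-type samples 1 to 4 and 4.33, 4.66, 5.12 and 5.11 in knockout samples 5 to 8. The 4 knockout arrays lay within the wild-type range. The difference for C1qa was -0.28 (SE 0.44, 95% interval -1.31 to 0.75, limma adjusted p = 0.799). C1qb read 4.0, 4.58, 5.17 and 5.74 in the wild-type samples and 4.55, 4.46, 5.26 and 4.90 in the knockout samples. These too lay within the wild-type range, with a difference of -0.08 (SE 0.42, 95% interval -1.05 to 0.90, adjusted p = 0.946). For both genes wild-type replicate 4 was the highest of the 8 arrays, and the sign of both differences turned under other scalings. The intervals leave room for a change of 2-fold or more in C1qa (lower limit -1.31) and C1qb (lower limit -1.05).

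C1qc encodes the C chain. Its main probe read 2.06, 2.35, 2.00 and 2.92 in wild-type samples 1 to 4 and 2.12, 1.73, 1.63 and 1.70 in knockout samples 5 to 8. Knockout samples 6 to 8 lay below all wild-type arrays and replicate 5 lay among them. Wild-type samples averaged 2.33 ± 0.42 (SD, n = 4) and knockout samples 1.79 ± 0.22 (SD, n = 4), a knockout minus wild-type difference of -0.54 (SE 0.29, 95% interval -1.21 to 0.13, limma adjusted p = 0.481), which ranged from -0.92 to -0.16 over the other settings. The Ensembl-transcript probe of C1qc ran from -3.95 to -0.83 on wild-type and from -5.88 to -1.77 on knockout arrays, with a difference of -0.51 (SE 1.06, adjusted p over probes 0.851). Across the 8 arrays both C1qc probes had a Pearson r of 0.069, so their signals showed little linear relation.

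C4b encodes complement C4, whose larger fragment becomes part of the classical and lectin pathway enzyme that cleaves C3. The C4b probe read -3.21, -3.41, -3.68 and -3.18 in wild-type samples 1 to 4, and 1.18, 2.39, 0.31 and -4.00 in knockout samples 5 to 8. The wild-type arrays were tightly grouped, whereas 3 knockout arrays lay far above them and replicate 8 lay below them. Before scaling, the intensity was 47.8 to 74.9 on the wild-type arrays, 1944, 4541 and 1035 on knockout replicates 5 to 7, and 59.7 on knockout replicate 8. The wild-type mean was -3.37 ± 0.23 (SD, n = 4) and the knockout mean -0.03 ± 2.78 (SD, n = 4), a 10.1-fold difference (log2 3.33, SE 1.25, 95% interval 0.43 to 6.24, unadjusted p = 0.0297, limma adjusted p = 0.459). Without knockout replicate 8 it was 4.66 (unadjusted p = 5.04e-05, limma adjusted p = 0.128), and without replicate 6 it was 2.53. Leaving out any 1 of the 7 arrays other than knockout replicate 8 ended the call at an unadjusted p under 0.05, with p between 0.0534 and 0.0748, so that Cfp alone of the 9 genes kept it. Within slide row 1, which holds replicate 8, the difference was 2.48 (adjusted p = 0.73), and within row 2 it was 4.19 (adjusted p = 0.532). Over all 21 other settings the adjusted p for C4b lay between 0.0734 and 0.873.

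The C4a probe, named here after its values were seen because it also lists C4b, did not show a step of that size. It read -3.41, -4.16, -5.66 and -4.42 in the wild-type samples and -3.39, -2.59, -5.39 and -4.85 in the knockout samples. Replicates 5 and 6 were the highest arrays by this probe as by the C4b probe, while replicate 7, high by the C4b probe, was second lowest. The difference was 0.36 (SE 0.73, 95% interval -1.35 to 2.07, adjusted p over probes 0.85), and r between both C4 probes was 0.53 over 8 arrays. The C4a probe was well above background on 3 of 4 arrays in each group. Astrocytes are another source of C4 in the brain. Their marker mean (5 genes, 4 of them tested, none past the threshold) was -2.80 to -2.66 in the wild-type samples and -3.03, -2.23, -2.84 and -2.26 in knockout samples 5 to 8. That mean includes Slc1a3, which did not pass the filter and was well above background on 1 knockout array alone. Slc1a3 read -3.88 on knockout replicate 8, where C4b was lowest, and -7.64, -6.20 and -7.39 on knockout replicates 5 to 7. Aldh1l1 (-3.92) and Gja1 (-3.03) instead had their lowest knockout values on replicate 8, where Gfap read 1.76 and Aqp4 -2.22. The part of these markers in the C4b values was not tested.

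C3 is the protein on which all complement pathways converge. The C3 probe read 0.71, 1.00, 0.26 and 0.93 in wild-type samples 1 to 4 and 0.15, 0.10, 2.87 and 2.41 in knockout samples 5 to 8. The knockout group was split, with replicates 5 and 6 below every wild-type array and replicates 7 and 8 above every one. The difference for C3 was 0.66 (SE 0.69, 95% interval -0.96 to 2.27, limma adjusted p = 0.696). Without replicates 7 and 8, the knockout arrays of slide column 4, it was -0.60 (adjusted p = 0.799), and over all 21 other settings the adjusted p for C3 lay between 0.5 and 0.93. A further probe, which is named for a predicted transcript and also lists the C3 transcript, ran from -5.50 to 0.79 on wild-type arrays and from -5.76 to -0.56 on knockout arrays. On it replicates 7 and 8 (-0.56 and -0.57) were again the highest knockout arrays, but wild-type replicate 3 (0.79) was higher still, and r with the main C3 probe was 0.53 over 8 arrays.

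Properdin, encoded by Cfp, is the stabiliser of the alternative pathway enzyme and is known as a product of myeloid cells, neutrophils included. Cfp read 0.76, -0.14, 0.06 and 0.62 in wild-type samples 1 to 4 and 2.95, 0.99, 3.87 and 2.04 in knockout samples 5 to 8. The lowest knockout value, 0.99 in sample 6, lay above the highest wild-type value, 0.76 in sample 1, so the groups did not overlap. In intensity, the wild-type arrays gave 1172, 678, 639 and 808, and the knockout arrays 6651, 1729, 12191 and 3949. The wild-type mean of Cfp was 0.33 ± 0.43 (SD, n = 4) and the knockout mean 2.46 ± 1.23 (SD, n = 4), a 4.40-fold difference (log2 2.14, SE 0.61, 95% interval 0.72 to 3.56, unadjusted p = 0.00868, limma adjusted p = 0.459). It was between 1.28 (within slide row 1) and 3.00 (within slide row 2) in the other settings, with an adjusted p between 0.388 and 0.873. Other filters, other variance models and the slide row block leave the value as it is by construction. Without knockout replicate 7 the Cfp difference was 1.67, and without replicate 6 it was 2.63. With its single probe, Cfp had no further reading to compare.

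Because the cells were measured in bulk, more RNA per cell and more cells of a Cfp-rich type cannot be told apart. Neutrophils had been removed by Ly6G in the sort. The mean of 6 neutrophil markers, all tested and none past the threshold, was -3.25 to -0.76 in the wild-type samples and -1.24 to -0.11 in the knockout samples. Among them S100a9, a calcium-binding protein of neutrophils and monocytes, was 1.87 or lower in the wild-type samples and 2.07 or higher in the knockout samples (difference 4.79, limma adjusted p = 0.459). Ly6g read -7.24 to -0.96 on wild-type and -3.01 to 1.38 on knockout arrays (difference 2.40). The differences were smaller for S100a8 (0.59), Retnlg (0.61) and Mmp8 (0.40), and negative for Cxcr2 (-0.30). For Ly6g and for each of these the groups overlapped. The mean of 6 markers of Ly6C-high monocytes was -0.99 to 3.09 in the wild-type and 0.60 to 1.95 in the knockout samples. The part of these markers in the Cfp difference was not tested.

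Factor B (Cfb) provides the protease of the alternative pathway enzyme, and its values differed more between arrays than between groups. The probe used for the gene read 1.69, 3.89, 4.96 and 4.32 in wild-type samples 1 to 4 and 0.44, 3.46, 5.16 and 4.11 in knockout samples 5 to 8. One array in each group, wild-type replicate 1 and knockout replicate 5, lay well below the other 6. The difference for Cfb was -0.42 (SE 1.11, 95% interval -3.01 to 2.17, limma adjusted p = 0.885). The other Cfb probe read -5.23, -5.22, 1.18 and -5.76 in the wild-type samples and -1.31, -5.79, 1.64 and -2.36 in the knockout samples. It put wild-type replicate 3 and knockout replicate 7 far above the rest, and these were also the highest arrays by the first probe, although r between both Cfb probes was 0.28. Its difference was 1.80 (SE 2.01, adjusted p over probes 0.715). Of the wild-type arrays 2 of 4 read this probe well above background, and of the knockout arrays 4 of 4, so the size and sign of its difference are uncertain.

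**Figure D2:**
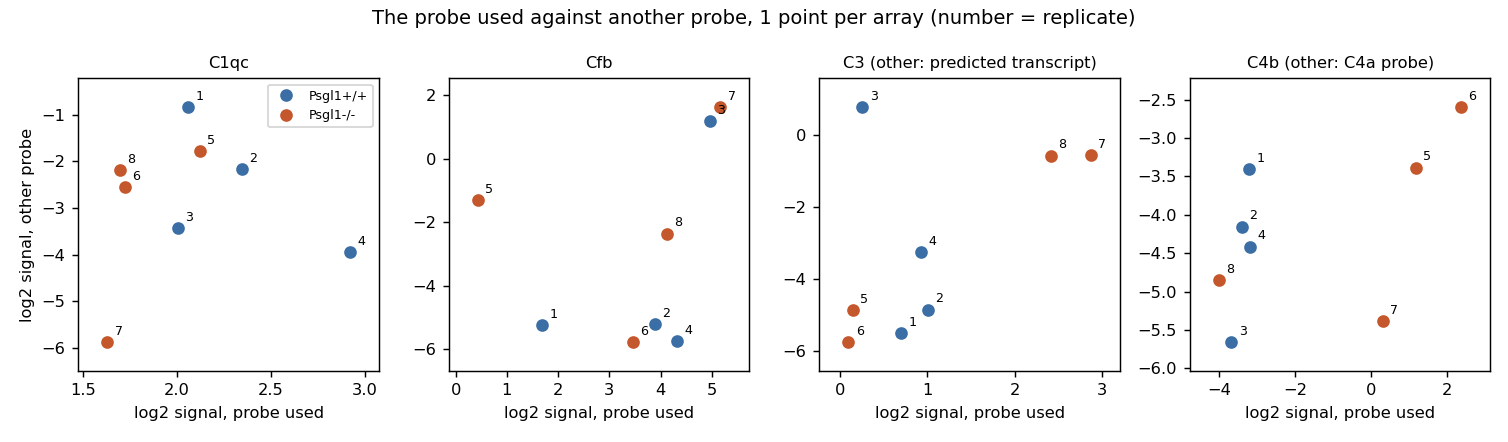
Log2 signal of a second probe against that of the probe used for the gene, 1 point per array with its replicate number, for C1qc, Cfb, C3 (second probe named for a predicted transcript) and C4b (second probe named for C4a). The Pearson r over the 8 arrays is 0.069, 0.28, 0.53 and 0.53 in that order, so the signals of both probes follow each other loosely at most.

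C3ar1, the receptor of the C3 fragment C3a, followed the split seen for C3. It read 1.83, 3.83, 3.24 and 2.99 in wild-type samples 1 to 4 and 2.91, 2.55, 5.23 and 4.70 in knockout samples 5 to 8. Knockout replicates 7 and 8 were the highest of the 8 arrays, and replicates 5 and 6 lay within the wild-type range. The C3ar1 difference was 0.88 (SE 0.72, 95% interval -0.80 to 2.55, limma adjusted p = 0.61), and without replicates 7 and 8 it was -0.24 (adjusted p = 0.907, and 0.475 to 0.93 over all 21 other settings). Both arrays were also the highest in the mean of the 6 neutrophil markers (-0.11 and -0.14). The mean of the 7 markers of the sorted cells was 3.92 and 2.81 on them, 2.11 and 1.98 on replicates 5 and 6, and 1.51 to 3.77 on the wild-type arrays. Microglia markers averaged 2.55 and 2.62 on them, against 1.33 and 1.51 on replicates 5 and 6 and 0.44 to 2.81 on the wild-type arrays. For Ly6C-high monocytes these means were 1.61 and 1.95 against 0.60 and 1.00, with -0.99 to 3.09 on the wild-type arrays. For conventional dendritic cells they were lower, -1.46 and -2.02 against -0.91 and -1.18, with -0.63 to -0.18 on the wild-type arrays. The part of these markers in the C3 and C3ar1 values was not tested.

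C5ar1, the receptor of C5a and a chemoattractant receptor of myeloid cells, had the smallest spread of the 9 genes. It read 1.62, 1.46, 1.51 and 1.81 in wild-type samples 1 to 4 and 1.36, 1.56, 1.14 and 1.13 in knockout samples 5 to 8. Replicate 6 lay among the wild-type arrays and the other knockout arrays below them. The difference was -0.30 (SE 0.23, 95% interval -0.83 to 0.23, limma adjusted p = 0.579), close to the -0.33 by which the median gene differed. In intensity before scaling, C5ar1 was 1738 to 2122 on wild-type and 1833 to 2562 on knockout arrays.

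**Figure D3:**
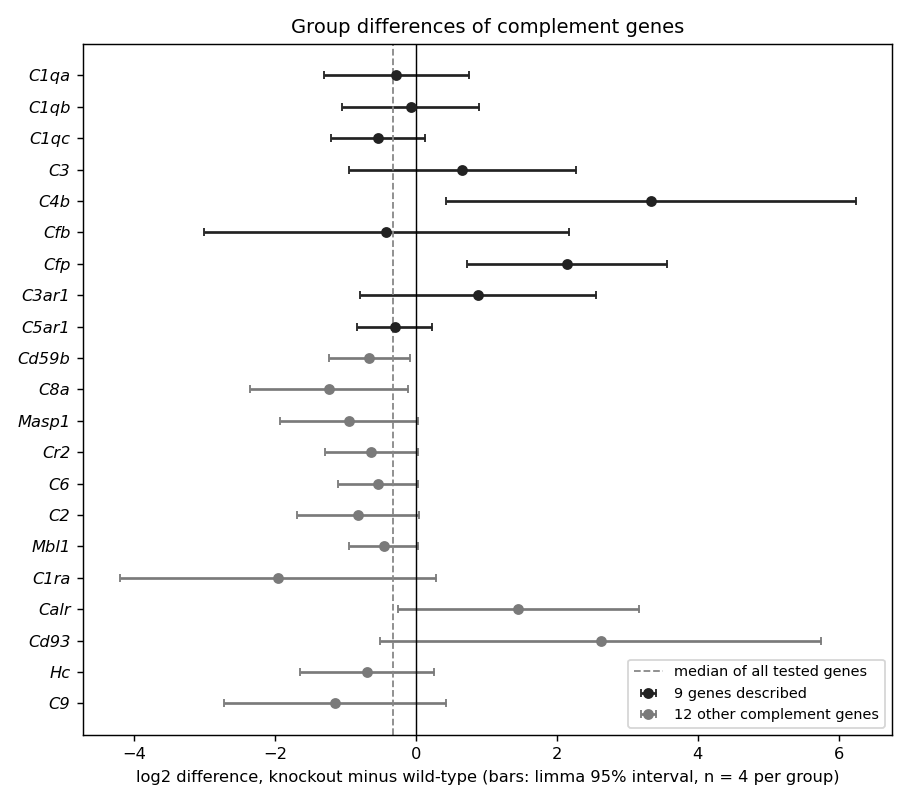
Log2 difference (knockout minus wild-type) of the 9 members and of the 12 other complement genes with the smallest unadjusted p, with limma 95% intervals (n = 4 per group). The dashed line is the median of all tested genes, -0.33. Intervals of Cfp and C4b lie above 0 and those of Cd59b and C8a below it, before any adjustment for the number of genes.

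Whether genes of 1 cascade varied together was examined over the 8 arrays for all 36 pairs of members. No pair passed after Benjamini-Hochberg adjustment, 3 had an unadjusted p under 0.05 by an exact permutation test of Pearson's r, and 19 of the 36 r values were positive. C3 and C3ar1 had r = 0.86 (exact permutation p = 0.00945, adjusted 0.332) and Spearman's rho = 0.81 (exact p = 0.0218, adjusted 0.392). Without knockout replicates 7 and 8, the arrays farthest from the median of C3, r fell to 0.26, so the size of r depends on those arrays. Leaving out the most extreme arrays narrows the range, which itself tends to lower r. Such values therefore cannot show whether a relation holds. For C1qa and C1qb, r was 0.67 (exact p = 0.0616, adjusted 0.332) and rho 0.62 (exact p = 0.115, adjusted 0.476), and r was 0.27 without wild-type replicates 2 and 4. C1qc had r = 0.42 with C1qa (exact permutation p = 0.283, adjusted 0.657; rho = -0.24, exact p = 0.582, adjusted 0.806) and r = 0.36 with C1qb (exact p = 0.383, adjusted 0.657; rho = 0). Without the 2 arrays farthest from the median of C1qa or C1qb, these r values were -0.50 and -0.42. The other two pairs at an unadjusted p under 0.05 were C3ar1 with C5ar1 (r = -0.79, exact p = 0.0212, adjusted 0.332; rho = -0.71, exact p = 0.0576, adjusted 0.476) and C1qc with C5ar1 (r = 0.75, exact p = 0.0296, adjusted 0.332; rho = 0.60, exact p = 0.132, adjusted 0.476). The r of the former was -0.29 without knockout replicates 7 and 8. That of the latter was 0.32 when wild-type replicate 4 and knockout replicate 7 were left out, so the size of both r values depends on the arrays named. Slide rows hold 4 arrays each, too few for r within a row.

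The genes most like each member were taken by Pearson's r over the 8 arrays among 25611 other tested genes with a symbol, as a description. C1qb was closest to Lyz2 (r = 0.997), which encodes lysozyme, and to Hexa (0.989), a lysosomal hexosaminidase subunit. C1qa was closest to Ctsa (0.973), a lysosomal carboxypeptidase, and to Rplp2 (0.969), a ribosomal protein. C3 was closest to Mettl9 (0.990) and Kif3b (0.974), C3ar1 to Gm4925 (0.972) and Npy4r (0.951), Cfp to Ttc14 (0.979) and Snora5c (0.962), C4b to Klf7 (0.988) and Klkb1 (0.983), and Cfb to Mcl1 (0.991) and 1810013L24Rik (0.967). C1qc was closest to Mybpc3 (0.991) and Eva1b (0.989), and C5ar1 to Nrde2 (0.989) and Dsg1b (0.984). With 8 arrays such values were common: an r above 0.9 was reached by 24 genes for C4b and by 522 for C5ar1, with the other members in between.

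Of 57 other complement genes listed, 56 were on the array and 47 were tested. None passed the threshold (limma), 2 of 47 had an unadjusted p under 0.05, both lower in the knockout (against 9.18% of all tested genes), and that count was 1 after quantile normalization or median scaling and 0 after cyclic loess. In the values scaled to the 75th percentile the groups did not overlap for 3 of 47, against 11.4% of all tested genes. Positive and negative differences numbered 23 and 24, with a median of -0.09. Of the genes that start the pathways, 17 were tested, 5 with positive and 12 with negative differences, and 9 of 17 lay above the median of all tested genes. After cyclic loess 9 of the 17 were positive. Masp1, a protease of the lectin pathway, differed by -0.95 (adjusted p = 0.459), C2, the protease of the classical enzyme, by -0.82 (0.459), the mannose-binding lectin Mbl1 by -0.46 (0.459) and C1ra, a protease of the C1 complex, by -1.96 (0.469). C1ra was well above background on 2 of 4 arrays in each group, so the size of its difference is uncertain.

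Among the 6 tested genes of the terminal pathway, which builds the membrane pore, 5 had negative differences, and 4 after cyclic loess. Differences were positive for 1 of 6, against 31.1% of all tested genes, and 2 of 6 lay above the median of all tested genes. C8a differed by -1.24 (unadjusted p = 0.0346, limma adjusted p = 0.459), C6 by -0.54 (adjusted p = 0.459), Hc, which encodes C5, by -0.70 (0.503) and C9 by -1.15 (0.504). C6 read -5.49 to -5.02 on knockout arrays and was well above background on 3 of 4 of them, so the size of its difference is uncertain. Without wild-type replicate 2 the difference of C9 was -0.57 and that of Hc -0.41, and within slide row 2 they were -0.47 and -0.24. The mean over all C8a probes, which takes in probe signal that did not pass the filter, had the opposite sign (0.59). Of 13 tested regulators, 10 had positive differences (10 to 12 under the other scalings) and 11 lay above the median of all tested genes, none of them past the threshold. Cd59b, an inhibitor of the pore, read 4.73, 4.85, 4.35 and 5.13 in wild-type samples 1 to 4 and 4.06, 4.20, 4.09 and 4.05 in knockout samples 5 to 8. Its groups did not overlap, with a difference of -0.67 (SE 0.25, unadjusted p = 0.0282, limma adjusted p = 0.459). After quantile normalization the Cd59b difference was -0.33 (unadjusted p = 0.264) and after cyclic loess -0.28 (unadjusted p = 0.251).

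Receptors and C1q-binding proteins numbered 10 tested genes, 7 with positive differences (8 or 9 under the other scalings) and 8 above the median of all tested genes. Cd93, a surface lectin-like protein of myeloid and endothelial cells, read -0.40, -3.27, 3.06 and 1.98 in wild-type samples 1 to 4 and 1.59, 3.62, 4.03 and 2.61 in knockout samples 5 to 8. Its wild-type arrays alone spanned over 6 log2 units, and the difference of 2.62 had an SE of 1.35 (adjusted p = 0.475). Calreticulin (Calr) differed by 1.45 (adjusted p = 0.473), with knockout replicate 7 far above the other knockout arrays, and Cr2, the receptor for C3d on B cells, by -0.63 (adjusted p = 0.459). Itgam and Itgb2, which together form complement receptor 3, differed by -0.09 (SE 0.52, adjusted p = 0.949) and 0.59 (SE 0.75, adjusted p = 0.752). For these 12 genes chosen by the smallest p, 3 other tested probes existed, for Cr2 and Masp1, and the sign was the same for 1 of those.

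**Figure D4:**
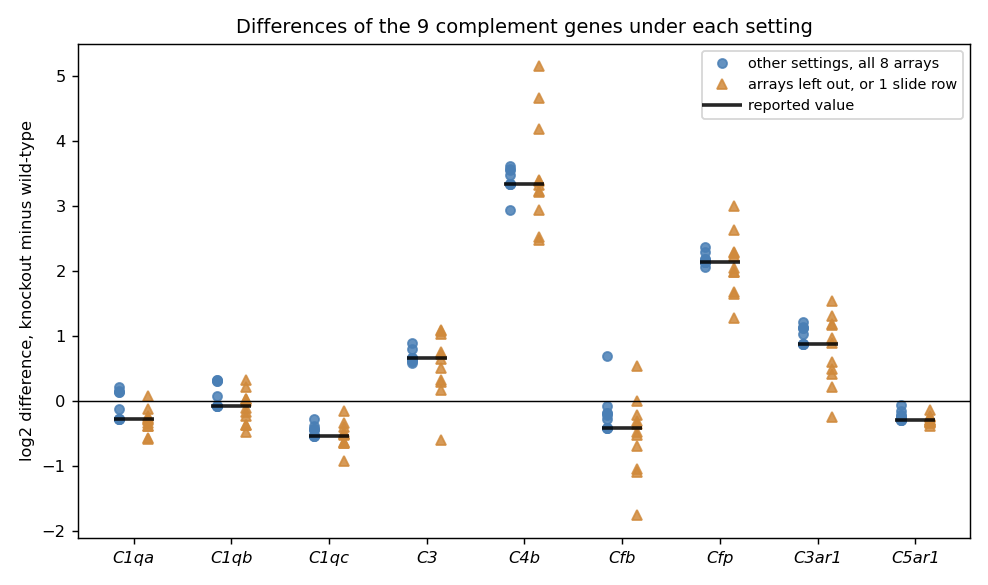
Log2 difference of each member (knockout minus wild-type) under each setting. The bar is the reported value, circles are other normalizations, filters and models on all 8 arrays, and triangles are fits with arrays left out or within 1 slide row. Cfp, at 1.28 to 3.00, and C4b, at 2.48 to 5.15, stay above 0 throughout, and C3 and C3ar1 reach -0.60 and -0.24 without knockout replicates 7 and 8.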

How the data were processed

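Per the labels, amplified and cyanine 3-labelled RNA of 8 samples was hybridised, 1 array per sample, and per the file headers it was read with Agilent Feature Extraction 11.5.1.1 in a single colour. The deposited scanner files give each spot's intensity on a linear scale, with background and spatial trends removed within each array and no scaling across arrays, per the file headers. The flag for spots well above background is a deposited value of the same files. The authors' value table held intensities with identical sorted values in every column, each with a median of 132.9. On the log2 scale its lowest r with its own array was 0.998 and its highest with another array 0.809, and it served as an alternative only.

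Control spots and outlier spots (25 to 149 per array) were left out. None was saturated. Repeated spots were averaged per probe. RefSeq accessions named 31064 of 60273 probes, symbols 8935 and older symbols 420. Each array's 75th percentile was subtracted, and for each gene the brightest probe by mean was taken. Genes whose spot cleared the background flag on 4 or more of 8 arrays, with a value on every array, were tested with limma 3.58.1 (R 4.3.3), two-sided, with Benjamini-Hochberg adjustment and a threshold of 0.05. A second fit took all 51203 probes that passed the same filter, of which 0.0176% passed the threshold. The fit was checked on simulated data. Correlations used exact permutation of all pairings (Python 3.11.15, numpy 2.4.6), and plots matplotlib 3.10.9.

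The members and gene lists were chosen with earlier results of these data known. Named genes were the 9 members, the 12 other complement genes with the smallest unadjusted p and, per member, the 2 most alike genes. Precision is limited by the number of arrays.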

Additional observations from a re-analysis of the deposited data

Results flagged for a closer look

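In 42 groups of 4 arrays (the 9 members and the 12 other named complement genes, each in both genotypes), 3 had an array whose distance to its nearest neighbour exceeded the 95% critical share of the group's range. Chance gives about 1 such group in 20. All 3 concern genes other than the 9 members. Calr read 3.50 on knockout replicate 7, against 1.12 to 1.20 on the other knockout arrays. Mbl1 read -0.39 on knockout replicate 5, against -0.63 to -0.62 on the others. C1ra read -1.52 on wild-type replicate 2, against -5.26 to -4.80 on the others. The gap below knockout replicate 8 of C4b was 0.676 of its group's range and did not reach that share.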

How the results depend on the processing

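No complement member and no other complement gene passed the threshold in any of 21 other settings, of which 1, leaving out knockout replicates 7 and 8 together, was added after the data were seen. In that setting C4b had its smallest adjusted p, 0.0734 (limma; 0.873 at most). C4b, Cfp, C1qc and C5ar1 kept their direction, though several settings cannot move a single-probe gene. C1qa turned to 0.14 after quantile normalization, 0.13 after cyclic loess, 0.15 in the value table and 0.21 after normexp, and C1qb to 0.31, 0.33, 0.31 and 0.31, to 0.069 with median scaling and to 0.32 within slide row 2. The mean of all probes gave 0.69 for Cfb and, with probe signal that did not pass the filter included, 0.59 for C8a. The second C1qc probe gave 0.68 within slide row 1 and 0.42 without knockout replicates 7 and 8, and the second C3 probe -0.36 within slide row 2 and -2.11 without those replicates, which turned C3 to -0.60 and C3ar1 to -0.24. Leaving out 1 array gave -0.57 to 0.078 for C1qa, -0.37 to 0.21 for C1qb, -1.09 to 0.53 for Cfb, -0.96 to 0.42 for the second C1qc probe, -0.53 to 1.59 for the second C3 probe and -0.13 to 0.80 for the C4a probe. The cause was not tested. Slide row as a block, balanced over the groups, cannot move a difference, and the lowest adjusted p among the members with it was 0.508 (limma). No paired analysis was possible because the groups share no replicate numbers.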

Other observations

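Spread within a group differed between the genotypes for several members. The SD over the 4 knockout arrays exceeded 1 log2 unit for 5 of the 9 members (C3, C4b, Cfb, Cfp and C3ar1), against 34.0% of all tested genes, and the SD over the 4 wild-type arrays did so for 1 of 9 (Cfb), against 32.9%. The knockout SD was the larger for 6 of 9 members and for 49.0% of all tested genes. No test of these spreads was made. Wild-type replicate 4 and knockout replicate 7 were each the highest of the 8 arrays for 4 of the 9 members, and knockout replicate 6 for the other one.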
